A study of Homo sapiens and Mus musculus with 5 samples.

Results

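The chromosome 4 SNPs of this screen were taken as every table entry whose SNP name places it on chromosome 4. They comprised 8 of 347 SNPs, carried by 23 of 984 fragments. Of the 46 alleles that these fragments could carry, 39 were present in at least 1 cell line's table, of 1625 alleles in all, and 25 were present in all 4. Both alleles were present for 16 of the 641 fragments measured that way. The screen used a modified STARR-seq (self-transcribing active regulatory region sequencing) on SNP alleles linked to schizophrenia.

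In STARR-seq a DNA fragment is cloned into the transcribed part of a reporter plasmid, so that a fragment with enhancer activity raises the amount of its own sequence in the cell's RNA. Activity is read as the share of RNA reads that a fragment takes, over its share of reads in the plasmid pool. A ratio below that of the typical fragment shows only that less of the fragment was recovered as RNA. It cannot tell weak transcription from loss of the transcript.

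The plasmid library was transfected into 4 lines. HEK-293T derives from human embryonic kidney, SH-SY5Y from a human neuroblastoma, Neuro-2a from a mouse neuroblastoma and PC-12 from a rat pheochromocytoma, although the label of PC-12 gives mouse as its organism. All fragments are human sequence, so in Neuro-2a and PC-12 they were read by rodent cells. No genotype or drug treatment distinguished the groups. HEK-293T, SH-SY5Y and Neuro-2a had 3 RNA libraries each, PC-12 had RNA replicates 1 and 3, and the same 3 libraries of plasmid input served every line. A SNP was placed in up to 3 fragments, preceded by 50, 100 or 150 bases and followed by 150, 100 or 50. Fragments of 1 SNP therefore overlap in sequence and are not independent of each other, whereas fragments of different SNPs lie at least 45.4 kb apart. The tables number the alleles 1 and 2, which is kept here, and the bases they stand for were not used here.

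The genome build of the positions, not given in the sources used here, is taken as GRCh38.p14, and the gene names below hold only if it is. On that build 4 of the 8 SNPs lie within 286 kb. One, at position 102730805, is inside MANBA (chr4:102630770-102760968), which encodes the lysosomal enzyme beta-mannosidase. The other three, at 102906331, 102951697 and 103016776, are inside SLC9B1 (chr4:102885049-103019705), which encodes a sodium/hydrogen exchanger family protein. Position 712911 is inside PCGF3 (chr4:705832-770089), which encodes a Polycomb group ring finger protein, and 144001396 is inside GYPB (chr4:143995188-144019380), which encodes the red cell protein glycophorin B. GYPB has close paralogs, so reads of its fragments could have been shared with a near-identical copy. Position 23421980 lies in the long noncoding RNA gene LOC105374524, and its nearest protein-coding gene is PPARGC1A, 370 kb away, which encodes the coactivator of mitochondrial gene expression PGC-1alpha. Position 64952689 lies in the long noncoding RNA gene LINC02232, 367 kb from EPHA5, an ephrin receptor gene. The gene table used holds no exons, so exonic and intronic positions were not separated.

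RNA libraries held 5875437 to 10201521 counts and input libraries 6380682 to 8421333, and no 2 replicates agreed within sampling noise. The protocols call the replicates biological but name no separate cultures, so p-values measure the spread between these libraries, which may be technical. PCR reads without molecular identifiers are not independent molecules, and depth limits only the counting error. Chromosome 4 alleles were at 0 in 32 of 356 RNA values (8.99%), against 873 of 17010 (5.13%) over all alleles. An allele kept in a table had at most 1 RNA library at 0, so alleles lost from more libraries are not seen, and the counts below cover only alleles that were kept.

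The chromosome 4 alleles lay low as a group. Their median log2 ratio of RNA to input was -1.06 in Neuro-2a (0.01 over all alleles), -0.69 in SH-SY5Y (-0.01 over all), -0.74 in HEK-293T (-0.11 over all) and -0.87 in PC-12 (-0.01 over all). Below the input by the quasi-likelihood test of edgeR, at an adjusted p (Benjamini-Hochberg over all alleles of the line) of 0.05, were 4 of 28 chromosome 4 alleles in Neuro-2a (14.3%, against 1.7% of all alleles). The count was 5 of 31 in SH-SY5Y (16.1%, against 5.51%), 2 of 35 in HEK-293T (5.71%, against 1.02%) and 6 of 37 in PC-12 (16.2%, against 4.77%). Above the input was 1 chromosome 4 allele, in SH-SY5Y (3.23%), and 0 in the other 3 lines, where edgeR also gave 0 at an unadjusted p of 0.05 and DESeq2 gave 0 in Neuro-2a and HEK-293T and 1 in PC-12. Of all alleles, 7.43% were above the input in SH-SY5Y, 5.64% in PC-12, 4.08% in Neuro-2a and 1.35% in HEK-293T. Every RNA library lay below every input library for 17 of 28 alleles in Neuro-2a (60.7%, against 24.7% of all alleles). The same was seen for 25 of 37 alleles in PC-12 (67.6%, against 33.5%), 19 of 31 in SH-SY5Y (61.3%, against 28.7%) and 18 of 35 in HEK-293T (51.4%, against 26.9%). Without any 1 of the 3 input libraries, edgeR left 0 chromosome 4 calls in Neuro-2a, HEK-293T and PC-12 and 1 in SH-SY5Y. Over all alleles it left 0 in the same 3 lines and 3 of 1562 in SH-SY5Y. The number of calls also moved when an RNA library was dropped, to 9 to 12 in Neuro-2a, 2 to 12 in HEK-293T and 7 to 15 in SH-SY5Y. PC-12 is left out here, since a single RNA library remains and the spread would come from the input alone. Calls over all alleles also rose in each of the other lines without RNA replicate 1. Without RNA replicate 1, calls below the input were 39.3% of chromosome 4 alleles against 16.2% of all alleles in Neuro-2a, 28.6% against 12.4% in HEK-293T and 35.5% against 24.2% in SH-SY5Y. Counted in both directions they were 42.9% against 41.3%, 34.3% against 31.8% and 48.4% against 54.9%. Without RNA replicate 2, calls below the input were 35.7% against 3.67% in Neuro-2a, 28.6% against 6.34% in HEK-293T and 19.4% against 6.72% in SH-SY5Y. Without RNA replicate 3 they were 32.1% against 4.28%, 5.71% against 0.833% and 25.8% against 6.98%.

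The low values were spread unevenly over the SNPs. Counting each allele in each line as 1 value, the calls below the input comprised 7 of 17 values for the SNP in MANBA, 6 of 24 for the one in LINC02232, 2 of 21 for the one near PPARGC1A and 2 of 20 for the one in GYPB. The SNPs in PCGF3 and SLC9B1 had none. Over all alleles, the share of such calls ranged from 1.02% (HEK-293T) to 5.51% (SH-SY5Y) of a line. The values of 1 SNP are not independent, since its fragments overlap and all lines share the input. The median log2 ratio was -4.62 for the SNP in MANBA and -3.28 for the one near PPARGC1A, and 0.03 for the SLC9B1 SNP at 102951697. Chromosome 4 alleles were also more abundant than usual in the plasmid pool, with medians of 680.3 to 934.4 CPM (counts scaled to a common library size by the trimmed mean of M values) against 429.5 to 478.7 over all alleles. Across all alleles of a line, the input level and the log2 ratio of RNA to input had a Spearman's rho of -0.24 to -0.13, and over the chromosome 4 alleles alone it was -0.49 to -0.35 (28 to 37 alleles a line). These describe alleles whose 2 measures share the input value. The part of the input level in the low ratios was not tested.

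With 100 bases in front of it, the SNP in MANBA was in a fragment whose allele 1 was lower in RNA than in the input in all 4 lines. Allele 1 of that fragment was among the most abundant in the plasmid pool, at 2317 to 2533 CPM in the input libraries. In RNA it had 49.4, 88.3 and 91.3 CPM in the 3 Neuro-2a libraries and 54.0, 68.5 and 62.2 in SH-SY5Y. HEK-293T had 46.1, 182 and 72.9, and PC-12 had 27.8 and 114. Each of the 11 RNA libraries thus lay far below each input library, and none of them was at 0. The log2 ratio of RNA to input was -4.96 ± 0.31 in Neuro-2a (SE, n = 3 RNA and 3 input libraries; edgeR adjusted p = 0.00413) and -5.27 ± 0.16 in SH-SY5Y (edgeR adjusted p = 0.00015). It was -4.62 ± 0.59 in HEK-293T (edgeR adjusted p = 0.035) and -5.06 ± 0.79 in PC-12 (n = 2 RNA libraries; edgeR adjusted p = 0.0326). These are 24.6-fold to 38.7-fold lower levels in RNA than in the input. Among all alleles, counted from the lowest ratio, the fragment ranked 3 of 1471 in Neuro-2a, 11 of 1614 in PC-12, 10 of 1562 in SH-SY5Y and 14 of 1561 in HEK-293T. The HEK-293T call was lost without RNA replicate 3, at an edgeR adjusted p of 0.0779.

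Allele 2 of the same fragment was low as well wherever it was measured. It had 1537 to 1632 CPM in the input. The RNA libraries of HEK-293T had 4.61, 10.5 and 26.5, with a log2 ratio of -6.87 ± 0.78 (edgeR adjusted p = 0.0284). PC-12 had 34.5 and 101, with -4.52 ± 0.60 (edgeR adjusted p = 0.0225). In Neuro-2a the 3 libraries had 0, 10.1 and 147 CPM, and the ratio did not pass the test (edgeR adjusted p = 0.21). In SH-SY5Y the allele was not in the table.

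With 150 bases in front, the MANBA fragments were also far below the input in the lines that kept them. Allele 1 had 1279 to 1350 CPM in the input. PC-12 had 8.49 and 3.12 in RNA, with a log2 ratio of -7.79 ± 0.64 (edgeR adjusted p = 0.00856). HEK-293T had 10.4, 5.80 and 0, which did not pass (edgeR adjusted p = 0.0812). Allele 2, measured in HEK-293T only, had 433 to 470 CPM in the input and 0, 5.80 and 10.2 in RNA (edgeR adjusted p = 0.112).

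With 50 bases in front, the SNP in MANBA was in fragments whose RNA came close to the input in many libraries. Allele 1 had 690 to 724 CPM in the input and, in RNA, 617 and 1566 in PC-12, 667, 8.83 and 0 in HEK-293T and 527, 0 and 1522 in SH-SY5Y. Libraries of 1 line thus ran from 0 to above the input, and no line passed the test. Allele 2 had 1649 to 1777 CPM in the input and between 0 and 1496 in the 11 RNA libraries, all below the input. Its log2 ratio ran from -0.76 ± 0.30 in HEK-293T to -2.47 ± 0.53 in PC-12 and passed the edgeR test in no line (adjusted p of 0.0624 in PC-12, the smallest).

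The placement test compared 2 fragments of 1 allele within each library, each by its RNA relative to the input. In PC-12, allele 1 of the SNP in MANBA was lower with 100 than with 50 bases in front, by -6.24 and -5.55 in the 2 libraries on the log2 scale (fitted -5.89 ± 0.28, edgeR adjusted p = 0.00849). It was also lower with 150 than with 50, by -7.08 and -9.87 (fitted -8.44 ± 1.05, edgeR adjusted p = 0.0452). Outside PC-12 no MANBA pair passed. In HEK-293T, allele 2 was lower with 100 than with 50 bases in front by -8.24, -5.90 and -5.04 (fitted -6.33 ± 0.91, edgeR adjusted p = 0.0785). Over all lines, the 100-base fragment of allele 2 was lower in 6 of 6 libraries that measured both. For allele 1 it was lower in 5 of 6, the exception being a HEK-293T library where the 50-base fragment had 67 counts. Libraries with 1 of the fragments at 0 are not in these counts. For allele 1 the 50-base fragment was at 0 in SH-SY5Y replicate 2 and HEK-293T replicate 3, where the 100-base fragment had 445 and 487 counts. For allele 2 the 50-base and 100-base fragments had 0 and 64 counts in Neuro-2a replicate 2, and 7112 and 0 in replicate 1. The low fragments both hold the bases 51 to 100 in front of the SNP, which the 50-base fragment does not, and they lack the bases 101 to 150 behind it, which only that fragment holds.

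The SNP near PPARGC1A was lowest with 50 or 100 bases in front. With 50 bases in front, allele 1 had 1723 to 1857 CPM in the input. Neuro-2a had 193, 243 and 177 in RNA, a log2 ratio of -3.10 ± 0.20 (edgeR adjusted p = 0.00413), and SH-SY5Y had 86.2, 95.1 and 38.1, a ratio of -4.59 ± 0.41 (edgeR adjusted p = 0.00542). HEK-293T had 192, 0 and 135 and PC-12 had 189 and 0, and neither passed. Allele 2 of that fragment had 337 to 381 CPM in the input. Its RNA had 0 and 58.8 in PC-12, 87.9, 0 and 59.9 in HEK-293T and 42.5, 66.0 and 0 in SH-SY5Y, below the input in each library without passing the test.

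With 100 bases in front, both alleles of the SNP near PPARGC1A were among the lowest of their lines, but their libraries disagreed in size. Allele 2 had 1566 to 1685 CPM in the input. RNA had 39.6, 13.2 and 0 in Neuro-2a and 0, 15.7 and 27.8 in the SH-SY5Y libraries. HEK-293T had 8.06, 179 and 7.63, and PC-12 had 15.1 and 1.04. It ranked 1 of 1471 from the lowest in Neuro-2a and 3 of 1562 in SH-SY5Y, and passed in no line, with edgeR adjusted p-values of 0.0526 to 0.14. Allele 1 had 1351 to 1406 CPM in the input, with 41.3, 3.49 and 85.8 in Neuro-2a and 20.8 and 0 in PC-12 (edgeR adjusted p = 0.0668 and 0.132).

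With 150 bases in front, allele 1 of the SNP near PPARGC1A had ratios nearer to 0 than with 50 bases, while allele 2 was below the input in 3 of 4 lines. Allele 1 had 387 to 440 CPM in the input. RNA had 94.6, 253 and 525 in Neuro-2a and 175, 522 and 449 in the SH-SY5Y libraries. HEK-293T had 411, 591 and 428, and PC-12 had 152 and 320. Its log2 ratio lay between -0.77 ± 0.37 and 0.18 ± 0.26, and no line passed. Allele 2 had 405 to 441 CPM in the input. RNA had 101, 66.7 and 0 in Neuro-2a and 209, 399 and 140 in the SH-SY5Y libraries. HEK-293T had 488, 808 and 406, and PC-12 had 163 and 58.1. Allele 2 overlapped the input in HEK-293T only. All its libraries lay below the input in Neuro-2a (log2 ratio -2.90 ± 1.85), PC-12 (-1.92 ± 0.51) and SH-SY5Y (-0.75 ± 0.42), and no line passed the edgeR test (smallest adjusted p of 0.096, in PC-12).

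The difference between placements passed in 3 comparisons for this SNP. In SH-SY5Y, allele 1 was higher with 150 than with 50 bases in front by 3.14, 4.57 and 5.67 on the log2 scale (fitted 4.47 ± 0.70, edgeR adjusted p = 0.0457). That call was lost without RNA replicate 2, at an edgeR adjusted p of 0.0932. In PC-12, allele 2 was higher with 150 than with 100 by 5.36 and 7.73 (fitted 6.47 ± 0.85, edgeR adjusted p = 0.0452). The third call, allele 1 lower with 100 than with 50 in PC-12 (fitted -2.76 ± 0.19, edgeR adjusted p = 0.037), rests on replicate 1, since replicate 3 was at 0 for both fragments. Without replicate 1 the fitted value was 0.35. Over the 4 lines, allele 1 with 150 bases exceeded that with 50 in 9 of 9 libraries that measured both, and allele 2 with 150 exceeded that with 100 in 9 of 9. Allele 2 with 150 exceeded that with 50 in 4 of 5 libraries, the exception being replicate 3 of PC-12 at -0.27. The 2 low fragments share the bases 51 to 100 behind the SNP, which the 150-base fragment does not hold.

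The SNP in LINC02232 was measured for both alleles and all placements in every line, with 0 of its RNA values at 0. Its differences between placements were smaller than those above, and 3 of its 4 comparisons with the 50-base fragment had the same sign in all libraries. With 50 bases in front, allele 1 had 1025 to 1086 CPM in the input. RNA had 432, 199 and 441 in Neuro-2a and 327, 421 and 198 in the SH-SY5Y libraries. HEK-293T had 603, 326 and 444, and PC-12 had 386 and 252. It passed in SH-SY5Y (log2 ratio -1.72 ± 0.30, edgeR adjusted p = 0.0269) and in PC-12 (-1.69 ± 0.23, edgeR adjusted p = 0.0246).

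Allele 2 of that LINC02232 fragment had 1193 to 1282 CPM in the input. RNA had 395, 377 and 475 in Neuro-2a and 342, 573 and 524 in the SH-SY5Y libraries. HEK-293T had 652, 511 and 804, and PC-12 had 583 and 425. It passed in Neuro-2a (-1.55 ± 0.18, edgeR adjusted p = 0.0136), SH-SY5Y (-1.35 ± 0.23, edgeR adjusted p = 0.0259) and PC-12 (-1.26 ± 0.18, edgeR adjusted p = 0.027). All 11 RNA libraries lay below the input for both alleles.

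With more bases in front, the LINC02232 SNP was nearer to the input. Allele 1 with 100 bases had 1475 to 1658 CPM in the input and 719 to 2208 in the 11 RNA libraries. In PC-12 it exceeded the 50-base fragment by 1.56 and 1.18 on the log2 scale (fitted 1.37 ± 0.18, edgeR adjusted p = 0.0452), and allele 2 with 150 bases exceeded that with 50 by 0.99 and 1.18 (fitted 1.09 ± 0.14, edgeR adjusted p = 0.0452). HEK-293T gave close values for the first of these, 1.31, 1.41 and 1.28, with an edgeR adjusted p of 0.0564. Both differences, and that of allele 1 with 150 over 50, were positive in 11 of 11 libraries, with allele 1 at 100 over 50 ranging from 0.15 to 2.53. The 11 values are not independent, since all lines share the input. Same-numbered RNA libraries of 2 lines also had correlated deviations (r of 0.16 to 0.73 over 15 pairs). Both limits hold for every count of libraries over the lines given here.

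One further allele of this SNP passed in a single line. Allele 2 with 150 bases in front had 1176 to 1278 CPM in the input, and 519, 670 and 556 in the RNA of Neuro-2a, a log2 ratio of -1.04 ± 0.17 (edgeR adjusted p = 0.0278). In SH-SY5Y RNA had 1368, 756 and 1352, in HEK-293T 1352, 1277 and 1074, and in PC-12 1143 and 951, ratios of -0.05, -0.01 and -0.19. An edgeR F test of any difference between the lines gave the smallest p of the chromosome 4 alleles here, 0.0238, and an adjusted p of 1.

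The SNP in GYPB also had its lowest RNA with 50 bases in front. Only allele 2 of that fragment was measured, at 512 to 545 CPM in the input. RNA had 92.4, 2.22 and 93.1 in Neuro-2a and 23.8, 52.8 and 0.31 in the SH-SY5Y libraries. HEK-293T had 12.8, 0 and 15.9, and PC-12 had 61.4 and 0. All 11 libraries lay below the input, and libraries of 1 line differed widely, with 248, 343 and 2 counts in SH-SY5Y and 463 and 0 in PC-12. The edgeR adjusted p-values were 0.102 to 0.307. With 100 bases in front, allele 1 was among the most abundant inputs, at 1855 to 2045 CPM. RNA had 621, 459 and 577 in SH-SY5Y, a log2 ratio of -1.79 ± 0.16 (edgeR adjusted p = 0.00542), and 1163 and 917 in PC-12, a ratio of -0.87 ± 0.14 (edgeR adjusted p = 0.0327). Neuro-2a had 976, 289 and 1168 and HEK-293T had 1038, 459 and 616, lower than the input in each library and not past the threshold (edgeR adjusted p = 0.203 and 0.0822).

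Moving the GYPB SNP to 150 bases from the fragment's start gave a higher ratio of RNA to input in most libraries. Allele 2 with 150 bases exceeded that with 50 in 9 of 9 libraries that measured both, by 0.71 to 10.28 on the log2 scale, and allele 1 with 150 exceeded that with 100 in 10 of 11. No GYPB pair passed the edgeR test in any line.

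The SNPs in SLC9B1 lay closer to the input. The one at 102951697 had the single chromosome 4 allele above the input. With 100 bases in front, its allele 2 had 966, 1315 and 1199 CPM in the RNA of SH-SY5Y against a mean of 680 in the input, a log2 ratio of 0.77 ± 0.17 (edgeR adjusted p = 0.0391). That call was lost without RNA replicate 3, at an edgeR adjusted p of 0.0626. The other lines varied more than this difference: 0, 967 and 877 in Neuro-2a, 130, 783 and 1525 in HEK-293T and 144 and 2175 in PC-12. Allele 1 of this SNP was in no line's table.

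The SLC9B1 SNP at 103016776 was highest with 50 bases in front. Its allele 1 had 748 to 851 CPM in the input. RNA had 691, 2293 and 656 in Neuro-2a, where it was the highest chromosome 4 allele (log2 ratio 0.63 ± 0.54, not called). SH-SY5Y had 651, 1479 and 1951, HEK-293T had 728, 580 and 1495 and PC-12 had 922 and 2241. With 150 bases in front, allele 1 had 573 to 668 in the input and 224 and 371 in the RNA of PC-12. The 150-base fragment was lower than the 50-base one there by -1.67 and -2.22 on the log2 scale (fitted -1.94 ± 0.24, edgeR adjusted p = 0.0452). It was lower in 9 of 11 libraries over all lines.

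The SLC9B1 SNP at 102906331 gave the highest fitted ratios of the set from a fragment that was rare in the plasmid pool. Allele 1 with 100 bases in front averaged 87.0 counts per input library, at percentile 0.64 of the input levels in the SH-SY5Y table. RNA had 0 and 2337 counts in PC-12, 0, 2499 and 1209 in HEK-293T and 87, 615 and 994 in SH-SY5Y. The libraries of each line thus ran from 0 or the input's level to far above the input, and no line passed (edgeR adjusted p of 0.356, 0.358 and 0.108).

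The SNP in PCGF3 was kept in few tables and in none of Neuro-2a. Its 7 values in RNA replicate 1 ranged from 538 to 10391 counts, whereas in replicate 3 of the same lines 6 of 7 were 0 and the other was 51. No PCGF3 value passed a test.

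Over all placements, the edgeR test called 7 of 30 chromosome 4 pairs in PC-12 (4.25% of all pairs there) and 1 of 23 in SH-SY5Y (2.6% of all). It called 0 of 20 in Neuro-2a (3 at an unadjusted p of 0.05, 1.22% of all pairs called) and 0 of 28 in HEK-293T (6 at an unadjusted p of 0.05, 0.337% of all pairs called). DESeq2 called 3 pairs in Neuro-2a (15%, against 17.8% of all pairs) and 9 in HEK-293T (32.1%, against 15.7%). The PC-12 share, 23.3%, comes from 2 RNA libraries and from pairs that share fragments. Without any 1 input library, 0 chromosome 4 pairs passed in each line, and 0% of all pairs. Leaving out an RNA library gave 2 to 9 calls in SH-SY5Y, 0 to 8 in HEK-293T and 0 to 4 in Neuro-2a. PC-12, where a single RNA library remains, is left out here. Without RNA replicate 1 the shares were 39.1% against 49.4% of all pairs in SH-SY5Y, 28.6% against 25.3% in HEK-293T and 20% against 29.5% in Neuro-2a. Without RNA replicate 2 they were 8.7% against 2.85%, 28.6% against 6.14% and 0% against 0.282%. Without RNA replicate 3 they were 21.7% against 4.86%, 0% against 0.337% and 10% against 2.92%.

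No difference between the 2 alleles of a chromosome 4 fragment passed the edgeR test: 0 of 15 fragments in PC-12 (0% of all fragments), 0 of 14 in HEK-293T (0%), 0 of 11 in SH-SY5Y (0.166%) and 0 of 9 in Neuro-2a (0.187%). At an unadjusted p of 0.05 there were 3, 2, 0 and 1, and the DESeq2 test likewise gave 3, 2, 0 and 1 at an adjusted p of 0.05, where it called 10.7%, 1.82%, 4.49% and 12.7% of all fragments. Without RNA replicate 1 edgeR made 3 calls in each line but PC-12, along with 20.8% of all fragments in HEK-293T, 46.9% in SH-SY5Y and 30.5% in Neuro-2a. In PC-12 there were 13 without RNA replicate 1 (89.3% of all fragments were called) and 12 without RNA replicate 3 (53.9%), each from a single RNA library.

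The allelic effect, taken as allele 2 over allele 1 in RNA relative to the input, kept its sign in every library for 1 fragment, the SLC9B1 SNP at 103016776 with 100 bases in front. Allele 2 was higher by 0.78, 0.51 and 6.25 on the log2 scale in Neuro-2a and by 0.20, 0.29 and 1.08 in SH-SY5Y. In HEK-293T it was higher by 0.11, 1.44 and 0.88, and in PC-12 by 0.31 and 1.52. The value of 6.25 comes from a library with 56 counts of allele 1. The fitted effects were 2.04 ± 1.68, 0.52 ± 0.29, 0.81 ± 0.38 and 0.92 ± 0.42, and the edgeR adjusted p lay between 0.398 and 0.745. Of the 281 fragments with both alleles measured in all 11 RNA libraries, 17 (6.05%) kept 1 sign, and of the 6 on chromosome 4, 1 did. All libraries are set against the same input, so an error in the input's allele ratio would give them all the same sign.

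For the SNP in MANBA the allelic effect with 100 bases in front differed in sign between lines. Allele 2 was lower than allele 1 by -2.72, -3.51 and -0.86 in HEK-293T (fitted -2.38 ± 0.72, edgeR adjusted p = 0.677) and higher by 0.91 and 0.42 in PC-12 (fitted 0.66 ± 0.19, edgeR adjusted p = 0.59). In Neuro-2a the 2 libraries that measured both gave -2.52 and 1.29. With 50 bases in front, PC-12 gave -1.74 and -4.61 (fitted -3.17 ± 1.00, edgeR adjusted p = 0.59) and HEK-293T gave -0.11 and 4.98, the latter from a library with 67 counts of allele 1.

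For the SNP near PPARGC1A with 50 bases in front, allele 2 was higher than allele 1 in the 4 libraries that measured both, by 1.15 to 1.80. In SH-SY5Y replicate 3 and PC-12 replicate 1, however, allele 2 was at 0 while allele 1 had 248 and 1428 counts. In PC-12 replicate 3 the reverse held, with 0 counts of allele 1 and 396 of allele 2. The fitted effect in SH-SY5Y was 0.11 ± 2.31. HEK-293T had a fitted effect of 1.22 ± 0.40 (edgeR adjusted p = 0.677). With 150 bases in front the sign was negative in 5 of 10 libraries, and Neuro-2a gave 0.05 and -1.97. In LINC02232, allele 2 with 150 bases in front was lower in 9 of 11 libraries, and the fitted effect was -0.81 ± 0.30 in Neuro-2a, -0.69 ± 0.44 in PC-12, -0.21 ± 0.46 in HEK-293T and -0.74 ± 0.33 in SH-SY5Y. In GYPB, allele 2 with 150 bases in front was likewise lower in 9 of 11 libraries (fitted -1.37 to -0.26). Neither passed the edgeR test in any line.

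The largest negative chromosome 4 effects in SH-SY5Y and HEK-293T came from the SLC9B1 SNP at 102906331 with 100 bases in front, whose allele 1 is the rare one described above. The 3 SH-SY5Y libraries gave 0.03, -3.39 and -4.98, and the 2 HEK-293T libraries that measured both gave -6.45 and -4.20. In PC-12 the lowest fitted effect belonged to the same SNP with 50 bases in front, where replicate 1 gave 0.04 and replicate 3 was at 0 for allele 2.

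Differences between the lines were tested over RNA libraries for the 25 chromosome 4 alleles and 7 chromosome 4 fragments with both alleles that all 4 tables hold. The edgeR F test found 0 of 25 alleles (1 at an unadjusted p of 0.05) and 0 of 7 allelic effects (0 at an unadjusted p of 0.05), against 0% of 1436 alleles and 0% of 514 fragments overall. limma-voom gave 0 of 25 and 0 of 7. DESeq2 gave an adjusted p for 15 of the 25 alleles and called 0 of them, against 18 of 988 (1.82%) overall. For the MANBA fragment called in all 4 lines, the log2 ratios of RNA to input spanned -5.27 to -4.62, less than 1 log2 unit.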

How the data were processed

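STARR-seq libraries of 4 cell lines and their plasmid input were compared for the chromosome 4 SNPs. The authors deposited raw counts in a table for each line, holding a column for each library and allele, per the file headers. The submitters' processing notes name limma 3.40.6; aligner, counting tool and build: not given in the sources used here. Counts were analysed in R 4.3.3 with the edgeR 4.0.16 quasi-likelihood test, fitted on all alleles of a line with a mean count of at least 10 (trimmed mean of M values scaling, Benjamini-Hochberg adjustment, adjusted p of 0.05, two-sided). Activity compared RNA with input. Allelic and placement effects were interactions with RNA, with library as a term. The SE after each ± was derived from the fit, as the absolute log2 value over the square root of the edgeR F. It is not a spread computed directly over the libraries. Differences between lines used RNA libraries only, since the input is shared. The scripts were tested on simulated data with a single dispersion for all alleles, no added values at 0 and no replicate structure. That checks the code and not how well the tests suit these libraries. Alternatives were DESeq2 1.42.0, limma-voom (limma 3.58.1), counts of 0 treated as missing, no minimum count, a replicate block, an adjusted p of 0.1 and leaving out each library. Same-numbered RNA libraries of 2 lines had correlated deviations (r of 0.16 to 0.73 over 15 pairs), but so did replicate 2 of a line with replicate 3 of another (0.18 to 0.55), so that replicate 1 stood apart from both. RNA with same-numbered input showed little correlation (r of -0.06 to 0.17 over 11 pairs). Members, lists and tests were chosen with earlier results of these data known. Named in full were the SNPs in MANBA and near PPARGC1A, every chromosome 4 call and the extreme alleles and allelic effects of each line with a mean input count of at least 50. No sequences of the fragments were used.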

Additional observations from a re-analysis of the deposited data

Results flagged for a closer look

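Of the chromosome 4 values, 3 features moved in opposite directions in different lines, with every RNA library of 1 line on one side and every library of another line on the other. How often this occurred over all alleles, fragments and pairs is not given here, so the count cannot be read as a trait of chromosome 4. Allele 2 of the SLC9B1 SNP at 102906331 with 100 bases in front lay above the mean input in both PC-12 libraries (log2 ratio 0.52) and below it in all libraries of the other lines. The difference was 1.56 against Neuro-2a (-1.05), 1.07 against SH-SY5Y (-0.55) and 1.03 against HEK-293T (-0.52). The edgeR F test over the 4 lines, fitted across all alleles, gave an adjusted p of 1 for this allele, and the pairs of lines were not tested. The allelic effect of the MANBA SNP with 100 bases in front was positive in both PC-12 libraries and negative in all 3 of HEK-293T, a difference of 3.04 that was not tested. Allele 2 of the GYPB SNP was lower with 150 than with 100 bases in front in both PC-12 libraries (-0.19) and higher in all 3 libraries of SH-SY5Y (0.59) and HEK-293T (0.66). Those differences of 0.78 and 0.85 were not tested.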

How the results depend on the processing

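Counts of chromosome 4 calls moved more with the test than with the scaling. Scaling by DESeq2 size factors or dropping the minimum count kept every count of calls within 1.5 times the edgeR count, and no difference between lines was called under any alternative run. In the order Neuro-2a, SH-SY5Y, HEK-293T, PC-12, edgeR made 4, 6, 2 and 6 activity calls. DESeq2 gave 10, 11, 10 and 14. Of these, calls below the input were 37.0%, 25.8%, 32.3% and 35.1% of chromosome 4 alleles against 10.2%, 12.6%, 9.01% and 17.7% of all alleles (in both directions 37.0%, 35.5%, 32.3% and 37.8% against 28.9%, 30.7%, 24.6% and 39.8%). Treating counts of 0 as missing gave 16 in PC-12 (43.2%, against 24.3% of all alleles), 12 in HEK-293T (34.3%, against 7.05%) and 10 in Neuro-2a (35.7%, against 13%). limma-voom gave 5 in HEK-293T (14.3%, against 4.04%), and an adjusted p of 0.1 gave 7 in HEK-293T and 10 in PC-12. Leaving out 1 library gave 0 to 12 in Neuro-2a, 1 to 15 in SH-SY5Y, 0 to 12 in HEK-293T and 0 to 36 in PC-12. Allelic calls, 0 in edgeR, became 3 in PC-12, 2 in HEK-293T and 1 in Neuro-2a with DESeq2. Counts of 0 missing gave 1 in PC-12 (7.14%, against 1.9% of all fragments). Leaving out 1 library gave 0 to 3 in the lines other than PC-12. Placement calls were 0, 1, 0 and 7 in the same order of lines. With limma-voom they became 1, 4 and 3 in the first 3 lines (5%, 17.4% and 10.7%, against 3.86%, 6.37% and 1.52% of all pairs). PC-12 had 7 (23.3%, against 6.45%), of which 6 were also edgeR calls. There 23421980 allele 1, 100 over 50, was lost at a limma-voom adjusted p of 0.257. Counts of 0 missing gave 2, 7, 10 and 14 (10%, 30.4%, 35.7% and 46.7%, against 9.13%, 15.3%, 5.3% and 18.1%). DESeq2 gave 3, 9, 9 and 17 (15%, 39.1%, 32.1% and 56.7%, against 17.8%, 30.3%, 15.7% and 34.7%). Placement calls at an adjusted p of 0.1 were 1, 3 and 2 in the first 3 lines, with the share of all pairs likewise not given. With 1 library left out they ran 0 to 4, 0 to 9, 0 to 8 and 0 to 26. The cause of these shifts was not tested.

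RNA and input libraries share only a number. With the replicate number as a block, activity calls were 0 in Neuro-2a, HEK-293T and PC-12 and 1 in SH-SY5Y. Over all alleles they were also 0 in those 3 lines and 1 of 1562 in SH-SY5Y. Between lines the replicate block changed no call.

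Of the named values that were checked, these changed sign. Uncalled values with an allele or fragment at 0 in an RNA library were left out of the check, so the list does not cover them. Allele 2 of 102951697 with 100 bases in front, 0.21 in HEK-293T, was -0.33 with limma-voom, -0.39 with counts of 0 missing and -0.63 to 0.71 with 1 library left out. In PC-12, at 0.78, it was -0.34, -0.27 and -2.23 to 1.69. Allele 2 of 64952689 with 150 bases in front, -0.01 in HEK-293T, was 0.014 with DESeq2 size factors and -0.083 to 0.079 with 1 library left out, and in SH-SY5Y -0.17 to 0.19. With 1 library left out, allele 1 of 103016776 with 50 bases ran from -0.23 to 0.93 in Neuro-2a and from -0.32 to 0.56 in HEK-293T. Allele 1 of 23421980 with 150 bases ran from -0.38 to 0.29 in SH-SY5Y, and allele 1 of 102730805 with 50 bases from -0.17 to 1.18 in PC-12. In PC-12 the allelic effect of 23421980 with 150 bases ran from -2.51 to 0.047 and its placement effect of 100 over 50 for allele 1 from -2.83 to 0.35. None of these but the last was called.

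Replicate libraries differed by more than the sampling noise of their reads, taken over all alleles together. Whether counting depth limited the abundant alleles was not tested. Counting error is larger for fragments with few input counts, such as 102906331 allele 1. RNA values at 0 also occurred beside high counts of the same allele. Allele 2 of 102730805 with 50 bases in front, for example, had 7112, 0 and 5247 counts in Neuro-2a. The cause of the values at 0 was not tested.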
